A study of Mus musculus with 8 samples.

Results

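The genes followed here encode the thin filament of heart muscle and its close relatives: the 5 actins Actc1, Acta1, Acta2, Actb and Actg1, the 4 tropomyosins Tpm1, Tpm2, Tpm3 and Tpm4, and the tropomodulin Tmod1. They were taken by symbol from a count table of 48440 entries, which held each of the 10 once. RNA had been sequenced from cardiomyocytes purified at postnatal day 2 from mice of the C57BL6/J strain, and the labels name no treatment. Of 8 libraries, 4 came from males and 4 from females, and each of 4 litters gave 1 library of each sex. The labels do not say whether a library holds 1 heart or several, and they give no date of isolation or sequencing, so a litter and the day its cells were prepared cannot be told apart. Between 14226342 and 24910243 reads were counted per library. Mitochondrial genes took 13.4% to 15.2% of the counts in 7 libraries and 18.5% in the male of litter 4.

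Actin monomers join into filaments, and in striated muscle those filaments carry tropomyosin along their length and are capped by tropomodulin at the pointed end. Cardiac muscle builds its thin filaments mainly from cardiac alpha-actin (Actc1), with skeletal alpha-actin (Acta1) as a second sarcomeric form that is known in the developing and the stressed heart. Smooth muscle alpha-actin (Acta2) marks early cardiomyocytes as well as smooth muscle, pericytes and activated fibroblasts, while beta-actin (Actb) and gamma-actin (Actg1) form the cytoplasmic filaments of nearly all cells. Tpm1 is the main tropomyosin gene of the mouse heart, Tpm2 and Tpm3 serve smooth and slow skeletal muscle and other cells, and Tpm4 is chiefly cytoskeletal.

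Muscle actin genes are classic targets of serum response factor, which binds the CArG box, a run of A and T between CC and GG that reads as the same class of sequence on both strands. The 250 bases before the RefSeq start (GRCm38.p6) were at hand for 9 of the 10 genes, and an intact box lay in 3 of them, Actc1, Acta1 and Actg1. Of all 32851 promoters of that length in the same table, 482 held one (1.47%). Boxes with 1 other letter in the A and T run were searched as well, and 7.24% of all promoters held at least 1. Those stretches are shown because they place the boxes of the muscle actins beside those of a cytoplasmic actin. All lie on the minus strand, read 5′ to 3′, with intact boxes and boxes with 1 other letter in capitals. Bases that GENCODE M21 gives as untranslated exon were left off the ends, so Acta2, whose annotated first exon covers 217 of the 250 bases, is shown as the 30 bases around each of its boxes.
Actc1, chr2:114052888-114053125: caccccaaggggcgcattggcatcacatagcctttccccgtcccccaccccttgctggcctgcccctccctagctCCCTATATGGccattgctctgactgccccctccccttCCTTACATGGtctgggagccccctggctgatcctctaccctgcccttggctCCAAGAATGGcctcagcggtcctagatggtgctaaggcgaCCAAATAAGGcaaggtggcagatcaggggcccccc
Acta1, chr8:123894776-123895025: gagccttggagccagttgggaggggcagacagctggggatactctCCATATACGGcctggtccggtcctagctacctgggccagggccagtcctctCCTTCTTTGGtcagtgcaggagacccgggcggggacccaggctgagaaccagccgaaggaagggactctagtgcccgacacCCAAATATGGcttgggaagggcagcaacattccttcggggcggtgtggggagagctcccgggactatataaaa
Actg1, chr11:120348543-120348745: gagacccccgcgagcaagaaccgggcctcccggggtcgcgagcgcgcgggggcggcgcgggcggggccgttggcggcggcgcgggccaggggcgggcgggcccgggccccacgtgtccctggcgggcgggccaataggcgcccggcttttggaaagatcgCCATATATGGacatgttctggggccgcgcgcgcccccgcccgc
Acta2, chr19:34255438-34255467: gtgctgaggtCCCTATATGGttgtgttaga
Acta2, chr19:34255388-34255417: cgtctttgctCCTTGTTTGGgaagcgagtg

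The intact boxes spanned bases 47 to 38 before the start in Actc1, 73 to 64 in Acta1 and 90 to 81 in Actg1. Actc1 had 3 further boxes with 1 other letter, Acta1 had 2 and Actg1 had none. Acta2 had no intact box in the window and 2 with 1 other letter, at bases 84 to 75 and 34 to 25 before the start. Tpm3 had 1 box with 1 other letter at each of its 2 listed starts, and Tpm1, Tpm2, Tpm4 and Tmod1 had no match of either kind in their windows. The windows follow RefSeq starts, and GENCODE M21 places some gene starts further upstream. Those of Tpm4 (chr8:72135038-72135287), Tmod1 (chr4:46038972-46039221) and Actc1 lie wholly inside the GENCODE gene, and those of Tpm1 and Tpm2 in part. For these genes the search covered little or no sequence before the GENCODE start. A match of letters describes the window and does not show binding.

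All 10 genes passed the filter on low counts, with between 151 counts (Tpm4) and 348541 counts (Actc1) per library. Together they took 2.15% to 2.33% of a library's counts in litters 1, 2 and 4, and 1.59% and 1.45% in the male and the female of litter 3. To rank genes against each other, CPM (counts relative to the library size, adjusted by TMM factors) were divided by the length of a gene's annotated exons in kilobases. On that scale Actc1 stood first with 7582 ± 1498 CPM per kb (SD over the 8 libraries), followed by Tpm1 with 996 ± 167, Acta2 with 342 ± 116 and Tmod1 with 162 ± 11.6. Actb had 91.7 ± 21.7 CPM per kb, Actg1 32.3 ± 8.81, Acta1 31.4 ± 7.61, Tpm2 18.6 ± 3.06, Tpm4 8.30 ± 2.87 and Tpm3 4.47 ± 0.541.

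Most neighbours in this order did not overlap over the 8 libraries, but 4 pairs did. Acta2 and Tmod1 overlapped in range although Acta2 was the higher in 8 of 8 libraries, and the same held for Acta1 over Tpm2 and for Tpm4 over Tpm3. Actg1 exceeded Acta1 in 4 of 8 libraries, so on this scale these did not differ beyond their spread. The lower places also turned on the length used, and so did the distance between the first 2 genes. Actc1 and Tpm1 stood at 8329 and 2235 CPM per kb with the longest annotated transcript. With no length correction they stood at 12268 and 6458 CPM. Actg1 stood at 43.9 and Acta1 at 33.4 CPM per kb with the longest annotated transcript, and at 85.7 and 48.3 CPM with no length correction, where Actg1 was the higher in 8 of 8 libraries. With the longest annotated transcript, Tpm3 (11.5 CPM per kb) stood above Tpm4 (8.60), and with no length correction Tpm2 stood above Acta1.

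**Figure D1:**
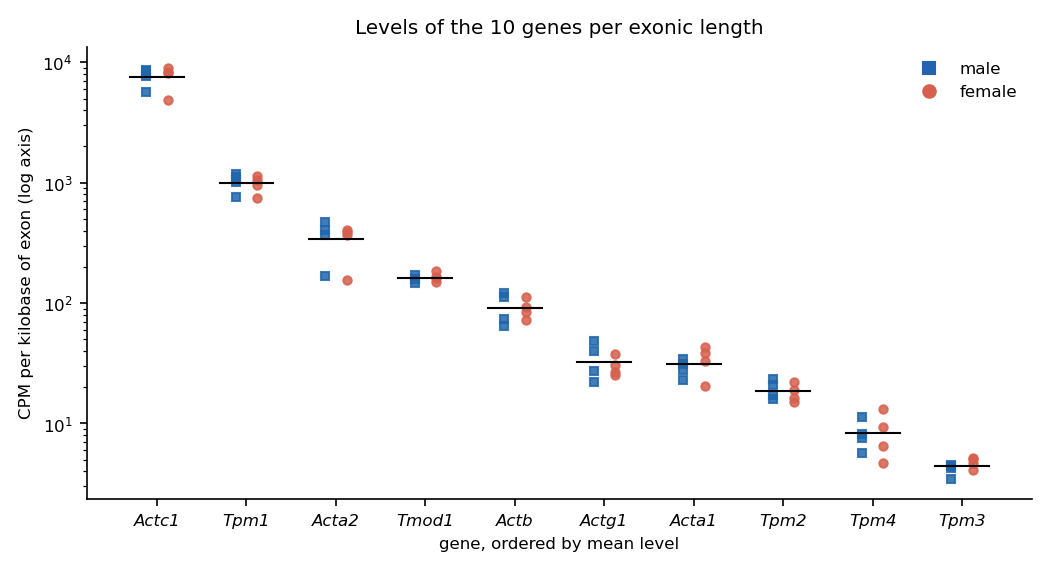
CPM per kilobase of exon (log axis) of the 10 genes in order of their mean, with a square for each male library, a circle for each female library and a bar at the mean of the 8. Actc1 lies at 7582 on average and Tpm3 at 4.47, and the low pair of points of Actc1, Tpm1 and Acta2 belongs to litter 3.

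Among the 5 actins, Actc1 made up 93.8% ± 0.367 of the summed CPM per kb (SD, n = 8), and this share ran only from 93.3% to 94.5%. Acta2 held 4.11% ± 0.810, Actb and Actg1 together 1.66% ± 0.769 and Acta1 0.404% ± 0.127. Of the 2 sarcomeric actins, Acta1 was 0.429% ± 0.134, and Actc1 exceeded it by 148 to 440 times in the 8 libraries. The smooth muscle gamma-actin Actg2, which is not one of the 10 genes, had 1 to 22 counts per library. Among the 4 tropomyosins, Tpm1 made up 96.9% ± 0.571, Tpm2 1.85% ± 0.348, Tpm4 0.810% ± 0.264 and Tpm3 0.450% ± 0.110. These shares carry no test and move with the length chosen. The longest transcript gave 98.0% for Tpm1, 1.11% for Tpm2 and 0.378% for Tpm4, and no length correction gave 98.4%, 0.843% and 0.280%. With no length correction Actb and Actg1 were 2.67% of the 5 actins, Acta2 was 5.44% and Actc1 91.5%.

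Counts were kept per gene, so the transcripts that each tropomyosin gene makes by alternative starts and exons, 21 annotated for Tpm1, 16 for Tpm3, 6 for Tpm2 and 2 for Tpm4, cannot be separated. Sequence shared with other loci could also move reads. Of the 100-base windows of the longest Actg1 transcript, 51.05% also occur in another gene, mostly the copies Gm12715 and Gm8399, which themselves had 0 to 2 and 1 to 7 counts. Tmod1 shares 1287 bases, 32.62% of its exonic length, with Tstd2 on the opposite strand, and Tstd2 had 19.3 to 21.7 CPM. Whether counting used the strand is not given in the sources used here, so Tmod1 and Tstd2 levels are uncertain to that extent. Shared windows came to 11.78% in Tpm3, 9.36% in Tpm4, 1.1% in Actb and 0 in Actc1, Acta1, Acta2, Tpm1 and Tpm2.

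Males and females were compared first. None of the 10 genes passed the edgeR quasi-likelihood test (adjusted p = 1.00 for each), none had an unadjusted p under 0.05 (2.22% of all tested genes did), and DESeq2 gave 0 on both counts as well. Over all tested genes 6 of 13771 passed (0.0436%). The sexes overlapped in all 10 genes, while 2.07% of all tested genes did not overlap. Actc1 averaged 12291 ± 2197 CPM over the 4 males and 12246 ± 2980 CPM over the 4 females (SD). The log2 difference, male minus female, was 0.01 with a 95% interval from -0.43 to 0.44. Tpm1 had 6587 ± 1222 and 6330 ± 1090 CPM, and its difference of 0.06 had an interval from -0.30 to 0.42. Over the 10 genes the intervals reached from -0.71 (Tpm4) to 0.84 (Acta2).

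With the litter as a block, which sets each male against the female of its own litter, the intervals of the 10 genes lay between -0.51 and 0.43, and again none passed, against 29 of 13771 genes (0.211%). Tpm3 had the smallest unadjusted p there (0.0103, adjusted p = 0.307 with edgeR) and a log2 difference of -0.19. Tpm3 was the higher in the female in 4 of 4 litters, and so was Tmod1, whereas Tpm1 and Tpm2 were the higher in the male in 4 of 4. That makes 4 of 10 genes with 1 direction in all litters, beside 20.3% of all tested genes. Acta1 was the higher in the female in 3 litters and in the male in litter 4, Acta2, Actb and Actg1 were the higher in the male in 3 litters, and Actc1 and Tpm4 were split evenly.

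Far more genes were called between litters than between sexes. The litter test asked whether the 4 litters differ at all, with sex in the model and 2 libraries per litter. It passed for 8 of the 10 genes at an adjusted p of 0.05, beside 32.1% of all tested genes. The span of the litter means on the log2 scale was 1.44 for Acta2 (edgeR adjusted p = 4.66e-06), 1.22 for Tpm4 (0.000921), 0.74 for Actc1 (0.0003), 0.69 for Actb (0.00214) and 0.69 for Actg1 (0.0316). It was 0.63 for Tpm1 (edgeR adjusted p = 0.00024), 0.55 for Tpm2 (0.000921) and 0.36 for Tpm3 (0.0332). Tmod1 spanned 0.25 (edgeR adjusted p = 0.0534) and Acta1 0.49 (0.163), and neither passed. Acta2 and Tpm4 passed with a span of at least 1, as did 7.62% of all tested genes.

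Each litter was then set against the mean of the other 3. The 4 comparisons share all libraries and are not independent. A fit without 1 library, as used below, leaves its litter with 1 library, so the spread then comes from the other litters. Against the others, litter 3 had 2 of the 10 genes higher (13.6% of all tested genes) and 6 lower (14.8%). In litter 1 the test called 3 as higher (7.86%) and 1 as lower (5.41%). Litter 2 gave 2 calls upward (3.3%) and none downward (0.879%), and litter 4 gave 3 upward (4.71%) and 3 downward (5.8%). In either direction these are 4, 2, 8 and 6 of the 10 genes in litters 1 to 4, beside 13.3%, 4.18%, 28.3% and 10.5% of all tested genes. In plain CPM, both libraries of litter 3 lay below the other 6 for 5 of the 10 genes and above them for 1, as for 16.4% and 15.1% of all tested genes. Both litter 4 libraries lay above for 3 (8.23% of all tested genes) and below for 2 (8.8%). Both litter 1 libraries lay above for 1 (8.89%) and below for none (8.67%), and both litter 2 libraries above for 1 (4.79%) and below for none (3.6%). Without the 2 libraries of litter 3, the litter test passed for 4 of the 10 genes (Actb, Tpm2, Tpm3 and Tpm4) and for 1898 of 13899 genes in all, against 4427 of 13771 with them.

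**Figure D2:**
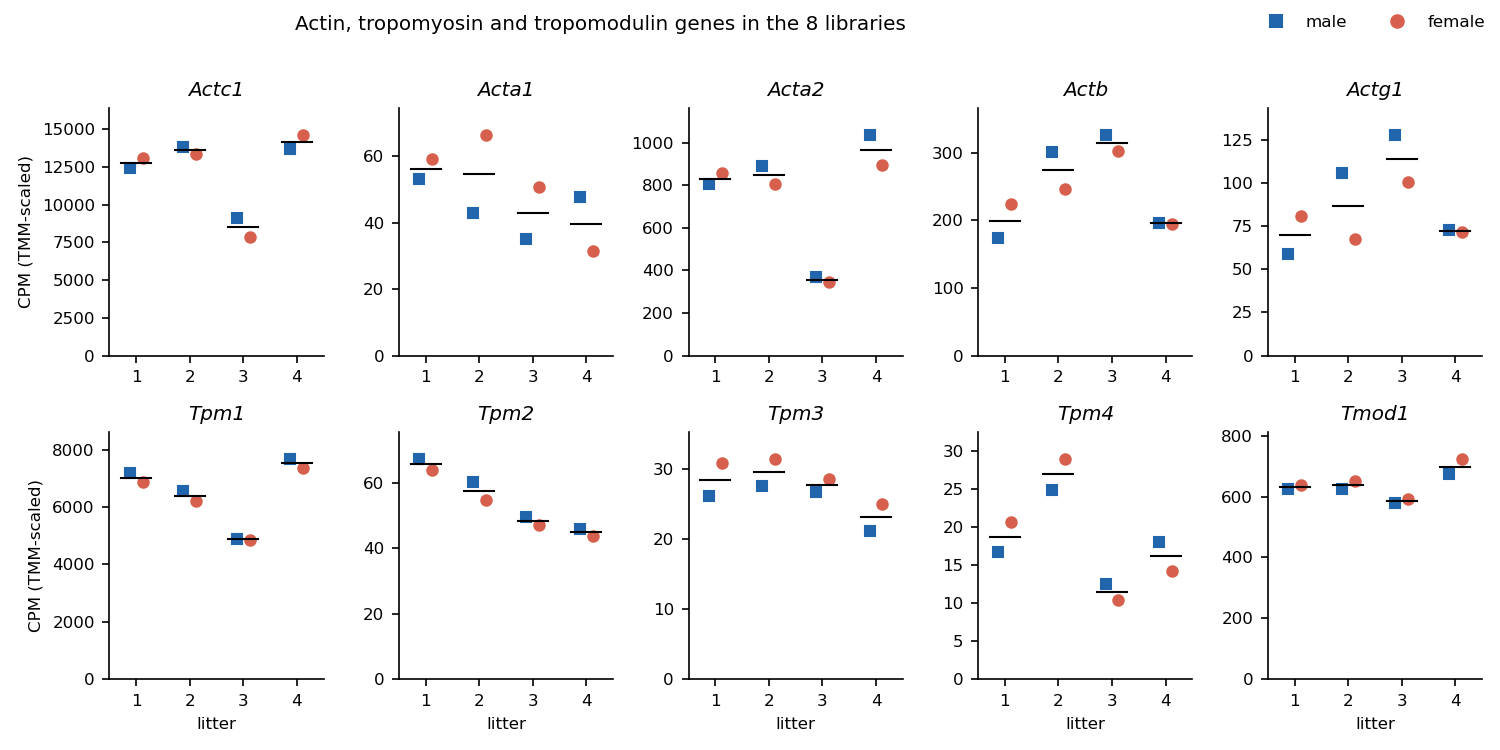
TMM-scaled CPM of each gene by litter, each axis from 0, with a square for the male library, a circle for the female library and a bar at the mean of the pair. Both litter 3 points of Actc1, Acta2, Tpm1, Tpm4 and Tmod1 lie below all others, and both of Actb lie above.

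**Figure D3:**
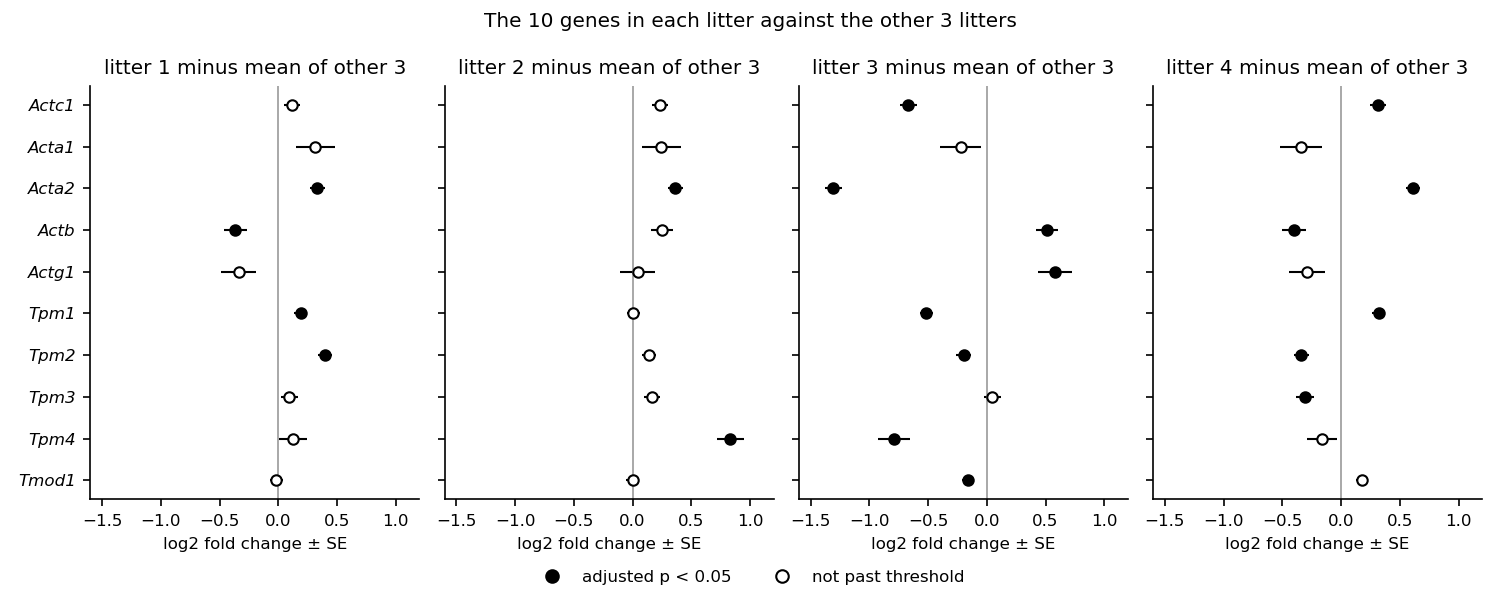
Log2 fold change of each gene in a litter against the mean of the other 3 litters, with its standard error as a bar. Filled points had an edgeR adjusted p under 0.05: 4 genes in litter 1, 2 in litter 2, 8 in litter 3 and 6 in litter 4.

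Actc1, the main actin of the cardiac sarcomere (chr2:114047282-114053548, minus strand, GRCm38, GENCODE M21, as for all genes that follow), was the most abundant of the 10 genes and was lower in litter 3. In males of litters 1 to 4 it stood at 12452, 13862, 9135 and 13714 CPM, and in females at 13119, 13344, 7889 and 14631 CPM. Both litter 3 libraries lay below the other 6, which ran from 12452 to 14631. Against the mean of the other litters Actc1 fell by 0.67 on the log2 scale in litter 3 (SE 0.07, edgeR adjusted p = 4.83e-05), a fold of 1.59, and it was 0.32 higher in litter 4 (SE 0.07, adjusted p = 0.0148). The litter 4 call was lost without the litter 1 male (adjusted p = 0.0605) or the litter 4 female, where litter 4 has 1 library left (value 0.24). With each of the 8 libraries left out in turn, the litter 3 value of Actc1 stayed between -0.79 and -0.55. Fits without a litter 3 library leave that litter with 1, and the spread then comes from the other litters. Without litter 3 the other litters spanned 0.15 (litter test, adjusted p = 0.339).

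Acta1, the skeletal alpha-actin (chr8:123891769-123894751, minus strand), had no litter call. Its males had 53.0, 42.8, 35.1 and 47.7 CPM in litters 1 to 4, and its females had 59.1, 66.4, 50.7 and 31.6 CPM. Siblings stood far apart in litters 2, 3 and 4. The range of litter 2 overlapped those of the other litters, while both libraries of litter 1 lay above both of litter 3 and both of litter 4. Acta1 passed in none of the 4 single-litter comparisons, and in litter 3 its log2 difference was -0.22 (SE 0.17, edgeR adjusted p = 0.371). The litter test passed without the male of litter 4, where the litter span was 1.05 (adjusted p = 0.00119) and litter 4 rests on its female alone, and also without the whole of litter 4 (span 0.41, adjusted p = 0.0338). As a share of both sarcomeric actins, Acta1 was lowest in the female of litter 4 (0.227%) and highest in the female of litter 3 (0.673%).

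Acta2, the smooth muscle alpha-actin (chr19:34241090-34255590, minus strand), had the widest litter span of the 10 genes. In litters 1 to 4 it stood at 806, 892, 369 and 1037 CPM in males and at 858, 804, 343 and 896 CPM in females. Litter 3 had less than the lowest of the other 6 libraries (804 CPM) in both of its libraries, and both litter 4 libraries lay above all others. Acta2 fell by 1.31 on the log2 scale in litter 3 (SE 0.07, edgeR adjusted p = 9.63e-07), which is 2.47-fold. It was 0.61 higher in litter 4 (SE 0.06, adjusted p = 0.000703), 0.36 in litter 2 (SE 0.06, 0.00678) and 0.33 in litter 1 (SE 0.06, 0.00572). Since each litter is set against a mean that includes litter 3, the 3 higher values carry its low level: without litter 3 the span was 0.21 (litter test, adjusted p = 0.146). The litter 1 call was lost without the female of litter 1 (0.21, adjusted p = 0.297), and the litter 2 call without the male (0.116) or the female of litter 2 (0.0594). As a share of the 5 actins Acta2 was 2.80% and 3.00% in litter 3, and 4.18% to 5.20% in the other libraries.

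Acta2 is also made by mural cells (smooth muscle and pericytes) and by fibroblasts, and their markers moved with litter. Of 10 mural markers, 7 passed the litter test (32.1% of all tested genes), and 4 were lower in litter 3 (14.8%): Pdgfrb by -2.30 (SE 0.31, edgeR adjusted p = 0.000295), Rgs5 by -2.21 (SE 0.33, 0.000557), Myh11 by -2.15 (SE 0.43, 0.0036) and Notch3 by -1.82 (SE 0.37, 0.00357). Those genes stood at 0.675 to 1.21 CPM in litter 3 and at 2.51 to 9.50 CPM in the other litter means. The summed level of the 10 markers, most of it Des and Abcc9, which cardiomyocytes express too, lay between 1981 and 1988 CPM in litter 3 and between 1818 and 2059.8 CPM elsewhere. Of 11 fibroblast markers, 9 were lower in litter 3, and their sum was 47.8 to 69.8 CPM there and 138 to 328 CPM elsewhere. In litter 1 (7.86% of all tested genes higher, 5.41% lower), no mural marker was higher and 2 were lower, Cspg4 by -0.23 (SE 0.06, 0.0301) and Mcam by -0.33 (SE 0.09, 0.0354). There 3 fibroblast markers were higher and none lower, and the higher Acta2 value of litter 1 carried the low level of litter 3. In litter 4 (4.71% of all tested genes higher, 5.8% lower), 1 mural marker was higher, Myh11 by 1.48 (SE 0.32, 0.0156), and 1 was lower, Abcc9 by -0.21 (SE 0.06, 0.0389), while 6 of the 11 fibroblast markers were higher and none lower. Des, Abcc9, Cspg4 and Mcam are named after their values were seen. No mural or fibroblast marker was at 0 in any library. The part of these cells in the Acta2 difference was not tested, and in such pooled RNA fewer cells of a type and less RNA per cell cannot be told apart.

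Actb and Actg1, the cytoplasmic actins, went the other way in litter 3. Actb (chr5:142903115-142906754, minus strand) had 174, 302, 326 and 196 CPM in males of litters 1 to 4 and 224, 247, 302 and 195 CPM in females. Both litter 3 libraries lay above the other 6, the male of litter 2 with 302 CPM just beneath the female of litter 3. Actb rose by 0.51 on the log2 scale in litter 3 (SE 0.09, edgeR adjusted p = 0.00195), and was lower in litter 1 by -0.36 (SE 0.10, 0.0305) and in litter 4 by -0.40 (SE 0.10, 0.0263). The litter 1 value was -0.12 without its male (adjusted p = 0.579) and -0.63 without its female (0.00474), and that call was lost also without the female of litter 4 (0.0508). The litter 4 call was lost without its male or its female, where 1 library is left (value -0.40 in each). With each of the 8 libraries left out in turn, the litter 3 value of Actb stayed between 0.44 and 0.60. Fits without a litter 3 library leave that litter with 1.

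Actg1 (chr11:120345690-120348542, minus strand) had 58.9, 106, 128 and 72.8 CPM in males and 80.9, 67.5, 100 and 71.6 CPM in females of litters 1 to 4. Litter 3 was the highest on average with 114 ± 19.4 CPM (SD, n = 2), yet the male of litter 2 lay above the female of litter 3. The log2 difference of litter 3 was 0.58 (SE 0.14, edgeR adjusted p = 0.0107), and it was 0.44 without the male of litter 3 (adjusted p = 0.157) and 0.59 in DESeq2 (0.106). The litter test of Actg1 was lost without the litter 3 male (0.172), the litter 3 female (0.0508) or the litter 4 male (0.0634), and its span rose to 1.11 without the female of litter 1 (0.00114). Together Actb and Actg1 were 2.83% and 2.89% of the 5 actins in litter 3, against 1.04% to 1.67% in the other libraries. The ratio between them was steadier: Actb was 71.7% to 78.4% of their sum. The level of that share is uncertain, since 51.05% of the Actg1 windows also occur in another gene, against 1.1% of those of Actb.

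Tpm1, the main cardiac tropomyosin (chr9:67022590-67049406, minus strand), was lower in litter 3 as Actc1 was. Males of litters 1 to 4 had 7190.1, 6569, 4890.4 and 7698 CPM, and females had 6882, 6216, 4855 and 7366 CPM. The 2 libraries of a litter lay close together, both of litter 3 below all others and both of litter 4 above all others. Tpm1 fell by 0.52 on the log2 scale in litter 3 (SE 0.06, edgeR adjusted p = 5.62e-05). It was 0.32 higher in litter 4 (SE 0.05, 0.00541) and 0.19 higher in litter 1 (SE 0.05, 0.0365). With each of the 8 libraries left out in turn, the litter 3 value stayed between -0.55 and -0.49 and the litter 4 value between 0.31 and 0.33. Fits without a library of litter 3 or 4 leave that litter with 1. The litter 1 call was lost without the litter 1 male (0.378) or female (0.361), the litter 2 male (0.0503) or female (0.0642), or the litter 3 male (0.0642). Without litter 3 the litter span of Tpm1 was 0.24 (adjusted p = 0.0818).

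Tpm2, the beta-tropomyosin (chr4:43514711-43523765, minus strand), was highest in litter 1 and lowest in litter 4. It had 67.5, 60.2, 49.7 and 46.0 CPM in males and 64.0, 55.0, 47.1 and 43.9 CPM in females of litters 1 to 4. Both litter 1 libraries lay above all others and both litter 4 libraries below all others. Tpm2 was 0.39 higher on the log2 scale in litter 1 (SE 0.06, edgeR adjusted p = 0.0015), and lower by -0.34 in litter 4 (SE 0.06, 0.00888) and by -0.20 in litter 3 (SE 0.06, 0.0365). The litter span of 0.55 also passed without litter 3 (adjusted p = 0.00325) and was 0.36 without litter 1 (0.024). Of the single-litter calls, litter 1 was lost without its male (0.0516) or its female (0.0538), and litter 4 without its male (0.0785) or its female (0.0597). The litter 3 call was lost in 6 of 8 such fits, all but those without the female of litter 2 or the male of litter 4, with adjusted p from 0.0508 to 0.214. As a share of the 4 tropomyosins Tpm2 was 1.30% in both libraries of litter 4 and 1.90% to 2.19% elsewhere.

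Tpm3 (chr3:90072649-90100902, plus strand) ranged over 1.49 times from its lowest to its highest library. Males had 26.1, 27.6, 26.8 and 21.2 CPM and females 30.8, 31.5, 28.6 and 25.0 CPM in litters 1 to 4, with both litter 4 libraries below the other 6. Its only single-litter call was a log2 difference of -0.31 in litter 4 (SE 0.07, edgeR adjusted p = 0.024). That call was lost without the litter 1 male (0.0521) or female (0.0699), or without the litter 4 male (0.161) or female (0.108). The litter test was lost without any 1 library of litters 1, 2 and 4 (adjusted p from 0.0645 to 0.162) and without the whole of litter 4 (span 0.08, adjusted p = 0.745).

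Tpm4, the cytoskeletal tropomyosin (chr8:72134975-72153142, plus strand), was highest in litter 2 and lowest in litter 3. Males had 16.7, 24.9, 12.5 and 18.0 CPM and females 20.6, 29.0, 10.4 and 14.2 CPM in litters 1 to 4. Both litter 2 libraries lay above the other 6 and both litter 3 libraries below. The log2 difference was 0.83 in litter 2 (SE 0.12, edgeR adjusted p = 0.00175), a fold of 1.78, and -0.79 in litter 3 (SE 0.14, 0.00133), a fold of 1.73. With each of the 8 libraries left out in turn, the litter 3 value stayed between -0.99 and -0.64, and fits without a litter 3 library leave that litter with 1. The litter 2 call was lost without its female (0.68), where 1 library is left. The litter test passed without litter 3 (span 0.74, adjusted p = 0.00792) and without litter 2 (span 0.70, 0.0124). As a share of the 4 tropomyosins Tpm4 was 1.08% and 1.32% in litter 2 and 0.556% to 0.854% elsewhere.

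Endothelial markers moved with litter too. Of 11, all 11 passed the litter test (32.1% of all tested genes), 11 were higher in litter 2 (3.3%) and 8 were lower in litter 3 (14.8%). Pecam1, an adhesion protein of endothelial cells, had litter means of 6.93, 19.1, 2.86 and 4.40 CPM, and Cdh5, the endothelial cadherin, had 9.47, 31.7, 4.26 and 6.14 CPM. The summed endothelial level was 118 CPM in the male and 193 CPM in the female of litter 2, 25.5 CPM in both libraries of litter 3, and 44.8 and 34.8 CPM in the male and the female of litter 4. In litter 1 the male had 22.5 CPM and the female 84.2 CPM. Of 11 fibroblast markers 8 were higher in litter 2 (median of the list 1.04), with sums of 225 and 328 CPM. Of 10 mural markers 3 were higher (median of the list 1.03): Pdgfrb by 1.87 (SE 0.22, edgeR adjusted p = 0.00054), Rgs5 by 1.69 (SE 0.23, 0.00169) and Notch3 by 1.10 (SE 0.28, 0.0487). The summed level of all 10 mural markers was 1877 and 2014 CPM in litter 2 and 1992 and 2059.8 CPM in litter 4. Most of that sum is Des and Abcc9, which cardiomyocytes express too. No marker of these 3 lists was at 0 in any library, and the part of these cells in the Tpm4 difference was not tested.

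**Figure D4:**
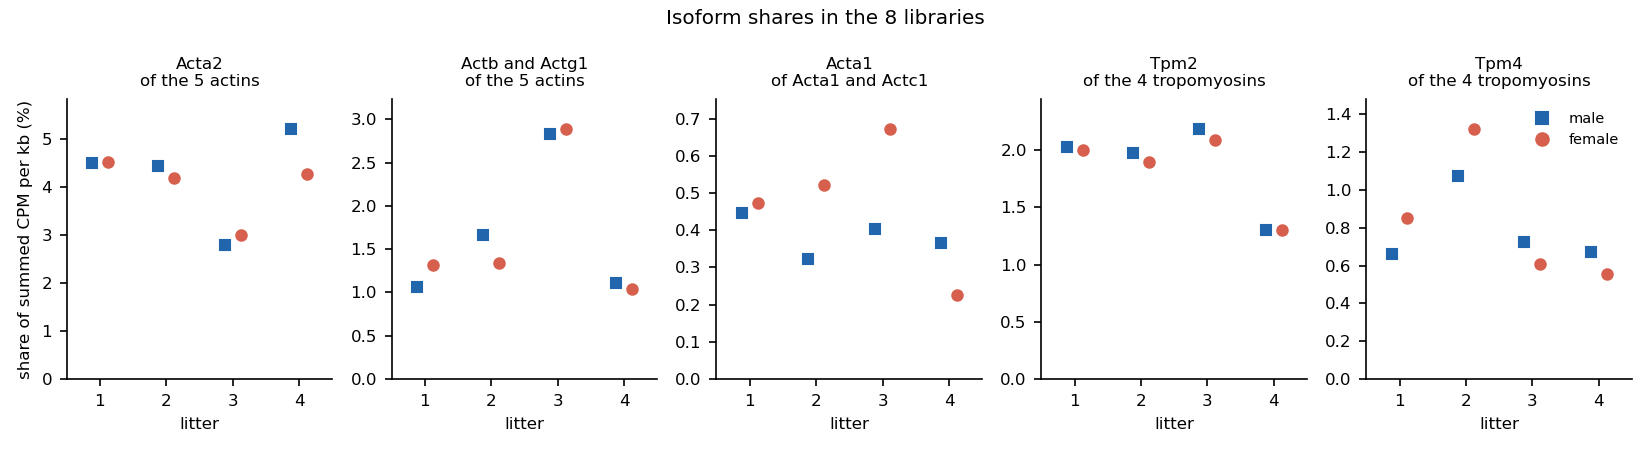
Shares of isoforms in percent of summed CPM per kb, by litter, each axis from 0, with squares for male and circles for female libraries. Acta2 is lowest and the cytoplasmic actins are highest in litter 3, Tpm2 is lowest in litter 4 and Tpm4 is highest in litter 2, while the share of Acta1 differs within litters.

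Tmod1, which caps the pointed end of thin filaments in heart muscle (chr4:46038935-46116032, plus strand), varied least over the 8 libraries of the 10 genes. Males had 625, 625, 581 and 673 CPM and females 639, 650.0, 592 and 725 CPM in litters 1 to 4, and the highest library exceeded the lowest by 1.25 times. Both litter 3 libraries lay below and both litter 4 libraries above the rest. Its log2 difference of -0.16 in litter 3 (SE 0.05, edgeR adjusted p = 0.0438) was lost in 7 of 8 fits without 1 library, all but that without the male of litter 4, with adjusted p from 0.0502 to 0.282. It was also lost with RLE scaling (0.054), with library size alone (0.135) and without a filter (0.0516).

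Other regulators of the thin filament were counted beside these genes. Of 8 tested pointed-end and length regulators, 4 passed the litter test, beside 32.1% of all tested genes. In litter 3 Lmod3, a leiomodin of striated muscle, was lower by -0.81 (SE 0.06, edgeR adjusted p = 5.03e-06), Nrap by -0.35 (SE 0.07, 0.00315) and Tmod2, at 3 to 25 counts per library, by -1.78 (SE 0.59, 0.0397). The cardiac leiomodin Lmod2 was higher by 0.31 (SE 0.08, 0.0133), and Tmod3 was higher in litter 2 by 0.58 (SE 0.14, 0.0341). Lmod3 was also higher in litter 1 by 0.45 (SE 0.06, 0.000444). Of 10 capping and Z-disc genes, 5 passed the litter test (32.1% of all tested genes). In litter 3 none was higher (13.6%) and 5 were lower (14.8%): the alpha-actinins Actn2 (-0.36, SE 0.07, 0.00186), Actn4 (-0.35) and Actn1 (-0.29), the capping subunit Capzb (-0.20) and the filamin Flnc (-0.32). In litter 4 Actn2 (0.23, SE 0.06, 0.0394) and Capzb (0.20, SE 0.06, 0.0418) were higher. The Z-disc gene Myoz2 passed the litter test with a span of 0.31 (adjusted p = 0.0141) and no call in litter 3. Tmod2, Capzb and Flnc are named after their values were seen.

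Of 21 formins, Arp2/3 subunits and other nucleators, 5 passed the litter test (23.8%, beside 32.1% of all tested genes). In litter 3, 3 were higher and 2 lower (13.6% and 14.8% of all tested genes). The formin Diaph2 was higher by 0.85 (SE 0.08, edgeR adjusted p = 2.05e-05) and Diaph3 lower by -1.09 (SE 0.22, 0.00341), while Actr3, a core subunit of Arp2/3, was lower by -0.26 (SE 0.06, 0.00526). Daam1 (0.25) and Wasf2 (0.22), named after their values were seen, were the others that were higher. Diaph3 (1.06, SE 0.17, 0.00246) and Actr3 (0.20, SE 0.05, 0.0305) were higher in litter 1, and Diaph2 was lower in litter 4 (-0.49, SE 0.09, 0.00677). Arpc1b passed the litter test with a span of 0.60 (adjusted p = 0.0346). Of 19 genes of monomer binding and filament turnover, 7 passed the litter test (36.8%, near the 32.1% of all tested genes). In litter 3, 3 were higher and 5 lower (13.6% and 14.8% of all tested genes). Xirp2, which binds actin at the intercalated disc, fell by 1.09 on the log2 scale (SE 0.08, edgeR adjusted p = 2.41e-06), Dstn (destrin, which severs filaments) fell by 0.31 (SE 0.07, 0.00431), and Gsn (gelsolin) rose by 0.22 (SE 0.06, 0.0126). Xirp2 was higher in litter 1 (0.86, SE 0.06, 1.42e-05) and litter 2 (0.28, SE 0.07, 0.0357), and Gsn was lower in litter 1 (-0.27, SE 0.06, 0.0107). Dstn (0.26, SE 0.06, 0.023) and Cap2 (0.21, SE 0.06, 0.0338) were higher in litter 4.

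Actin is folded by prefoldin and the chaperonin CCT, and its N-terminus is acetylated by Naa80. Of 16 tested genes of this list, 10 passed the litter test (62.5%, beside 32.1% of all tested genes). In litter 4, 6 were higher (4.71% of all tested genes) and none lower (5.8%). In litter 3, 1 was higher (13.6%) and 2 were lower (14.8%). Naa80, listed in the table under its older symbol Nat6, was higher in litter 4 by 0.38 (SE 0.08, edgeR adjusted p = 0.015) and lower in litter 1 by -0.53 (SE 0.09, 0.00215). The prefoldin subunits Pfdn5 (0.32, SE 0.06, 0.00855) and Pfdn1 (0.23, SE 0.06, 0.0351) and the chaperonin subunit Cct2 (0.23, SE 0.05, 0.0204) were higher in litter 4 too. In litter 3 the calls were Cct4 (0.23), Pfdn1 (-0.27) and Pfdn4 (-0.41), of which Cct4 and Pfdn4 are named after their values were seen.

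Serum response factor, its coactivators and cardiac factors formed a list of 16, of which 7 passed the litter test (43.8%, beside 32.1% of all tested genes). In litter 3, 2 were higher and 2 lower (13.6% and 14.8% of all tested genes). Gata6 was higher in litter 3 by 0.40 (SE 0.06, edgeR adjusted p = 0.000371) and Nkx2-5 by 0.32 (SE 0.06, 0.00315). Tead1 was lower in litter 4 by -0.42 (SE 0.06, 0.00269), and Tead4, at 0.266 to 1.32 CPM in the litter means, was higher in litter 1 by 1.48 (SE 0.30, 0.00751). Named after their values were seen, Srf itself had a litter 3 difference of 0.11 (SE 0.12, adjusted p = 0.556), Myocd one of 0.19 (SE 0.08, 0.115), and Mrtfa (in the table as Mkl1), a coactivator that senses free actin, one of -0.54 (SE 0.13, 0.00948). Fhl2, lower by -0.26 (SE 0.07, 0.0122) and also named after its values were seen, was the other call. In litter 1 Tead1 was higher (0.23, SE 0.05, 0.0175) and Gata6 (-0.26, SE 0.06, 0.0143) and Nkx2-5 (-0.23, SE 0.06, 0.0357) were lower. In litter 4 Tead4 (-1.59, SE 0.41, 0.0329) and Myocd (-0.39, SE 0.09, 0.018) were lower and Fhl2 was higher (0.22, SE 0.06, 0.0498).

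Of 14 further genes known as targets of serum response factor, 7 passed the litter test (50%, beside 32.1% of all tested genes). In litter 3, 2 were higher and 2 lower (13.6% and 14.8% of all tested genes). The immediate-early genes Egr1 and Fos rose by 1.94 (SE 0.13, edgeR adjusted p = 1.61e-06) and 1.93 (SE 0.13, 1.92e-06). The myosin light chain Myl9 fell by 0.57 (SE 0.08, 0.000316) and Fhl1, named after its values were seen, fell by 0.25 (SE 0.06, 0.008). Tagln, a smooth muscle protein, had litter means of 4.72, 7.56, 7.81 and 13.3 CPM, and its litter 3 difference was 0.00 (SE 0.18, adjusted p = 0.986), with a rise of 0.99 in litter 4 (SE 0.17, 0.00581) and a lower level in litter 1 (-0.94, SE 0.19, 0.00825). Egr1 was lower in litters 1 (-0.83, SE 0.14, 0.00335) and 2 (-1.15, SE 0.15, 0.0011), and Fos in litter 2 (-1.37, SE 0.16, 0.000523). Myl9 was higher in litter 1 (0.46, SE 0.07, 0.00228) and Fhl1 in litter 4 (0.20, SE 0.06, 0.0447). Over all tested genes the median litter 3 difference was close to 0 (0.000127), while the 14 targets had a median of -0.08 and the 16 regulators one of 0.09.

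The labelled cell type was checked with the same libraries. All 12 cardiomyocyte markers were tested. They summed to 76834 and 77359 CPM in litter 3, the lowest of the 8 libraries, and to 83843 to 95962.5 CPM elsewhere, with Tnnt2 (cardiac troponin T) at litter means of 11652 to 13041 CPM and no litter call (adjusted p = 0.163). Of the 12, 10 passed the litter test (83.3%, beside 32.1% of all tested genes). In litter 3, 6 cardiomyocyte markers were lower (14.8% of all tested genes) and 1 was higher (13.6%). Myl2 was lower by -0.39 (SE 0.06, edgeR adjusted p = 0.000424), Myl3 by -0.36 (SE 0.06, 0.000623) and Myh6 by -0.61 (SE 0.09, 0.000622), and Nppa, a natriuretic peptide, was higher by 2.26 (SE 0.21, 2.14e-05). In litter 1, 4 were higher and 1 was lower. In litter 4, 3 were higher, Myl2 (0.28, SE 0.05, 0.00921), Myl3 (0.22, SE 0.05, 0.0262) and Tnni3 (0.23, SE 0.05, 0.0226), and 2 were lower, Ryr2 (-0.41, SE 0.06, 0.00297) and Ttn (-0.25, SE 0.06, 0.0204). Myh6, Tnnt2, Tnni3 and Ttn are named after their values were seen. Of 15 skeletal muscle markers 5 had enough counts to be tested, and Myh1, Myh4, Myod1, Myf5 and Pax7 were at 0 counts in all 8 libraries. The skeletal list summed to 2558 to 3564 CPM, nearly all of it Ckm, the muscle creatine kinase, which heart muscle also makes. Ckm was lower in litter 3 by -0.25 (SE 0.06, 0.00915) and higher in litter 4 by 0.26 (SE 0.06, 0.018), as Tnni2 was (-0.47, SE 0.16, 0.0469, and 0.57, SE 0.15, 0.0306). The macrophage list had 3 of 9 genes tested, summing to 5.75 to 10.2 CPM, with Fcgr1 at 0 in all. Erythroid markers summed to 532 CPM in the male and 185 CPM in the female of litter 3 and to 98.6 to 247 CPM elsewhere, and 2 of 6 were higher in litter 3, Alas2 by 1.21 (SE 0.28, 0.00707) and Hbb-bt by 1.29 (SE 0.36, 0.0183). Epicardial markers summed to 23.6 and 23.5 CPM in litter 3 and to 14.3 to 19.5 CPM elsewhere. Of 6 tested, Tbx18 was higher in litter 3 by 0.83 (SE 0.10, 0.000125), and Aldh1a2 (-2.01, SE 0.49, 0.00967) and Msln (-1.29, SE 0.45, 0.0481), named after its values were seen, were lower. The part of these cells in the litter 3 differences was not tested.

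Genes with the pattern closest to Acta2 and Tpm4, the genes of the 10 whose litter means span at least 1 on the log2 scale, were sought among all other tested genes. Likeness was the root-mean-square difference of log2 CPM over the 8 libraries, each gene centred on its own mean. Closest to Acta2 were 4631405J19Rik (0.141), 3010026O09Rik (0.150) and Ptgis (0.152), the prostacyclin synthase. Closest to Tpm4 were Dclk2 (0.149), Lrrc8c (0.162) and Plekhg1 (0.174). Dclk2 and Ptgis are low, at 0.619 to 2.29 and 1.03 to 4.24 CPM. Such a ranking over 8 libraries always returns a nearest gene and carries no test.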

How the data were processed

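The authors deposited 1 table of read counts per gene symbol, with 8 columns matched to the samples by title. The submitters' processing notes name STAR 2.7.3a and the build mm10. The counting program, the annotation, the use of strand and the handling of reads with several matches are not given in the sources used here. Per the labels' protocols, libraries were built from 1 µg of total RNA with a stranded kit for total RNA, whereas the labels' molecule field names polyA RNA. Reads were single-end.

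From the deposited counts, filterByExpr on sex kept 13771 of 24853 genes with a count. Libraries were scaled by TMM, and edgeR 4.0.16 (R 4.3.3) fitted quasi-likelihood models, with Benjamini-Hochberg adjustment over all tested genes and a threshold of 0.05. Sex was tested without a litter term (6 residual degrees of freedom). Litter was tested with sex in the model (3 residual degrees of freedom), all 3 litter coefficients together and then each litter against the mean of the others. Standard errors are the size of the log2 fold change over the square root of F. The scripts were tested on simulated data with log2 changes of 0.5 and 1. Of the calls of the litter test, 12.2% and 11.5% were false. False calls made up 5.97% and 7.25% in the litter 3 comparison and 4.22% and 6.32% in the sex test. The litter test and the litter 3 comparison thus made more false calls than the threshold allows, which bears on calls near it.

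The labels give the litter of each sample, so that its 2 libraries are paired. With the mean of each sex removed, libraries of a litter correlated across genes at 0.367 to 0.696, and libraries of different litters at -0.482 to 0.27. Chi-square per degree of freedom was 6.80 to 48.3 over the 28 pairs of libraries, and none of these pairs differed by sampling noise alone.

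Exon lengths, positions and shared 100-base windows came from GENCODE M21 (GRCm38), promoters from RefSeq. Of 198 listed genes, 192 matched by symbol, 5 by an older symbol and 1 did not. The 10 genes and the lists were chosen with earlier results of these data known. All 10 genes are named. Of each other list up to 4 are named, those with the smallest adjusted p in the litter test. For the 10 genes a single-litter comparison is printed where it passes; for other genes not every such comparison is printed. Genes named outside this rule are marked in the text, except markers named because they are at 0 counts, and Actg2, which were also chosen after their values were seen. Alternatives were other scalings (RLE, library size), filters, DESeq2 1.42.0, leaving out mitochondrial genes, litters or single libraries, the litter block, no sex term and other gene lengths. The sex test without litter 3 was added after seeing the data.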

Additional observations from a re-analysis of the deposited data

Results flagged for a closer look

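In 3 of 40 groups of 4 libraries examined (the 10 genes and 10 isoform shares, in each sex), 1 library stood far from the other 3. Chance flags about 1 in 20 groups, or 2 of 40. The female of litter 3 had 343 CPM of Acta2, where the other females had 804 to 896. Its sibling was also the lowest of the males, with 369 CPM against 806 to 1037. The same female had 2.89% for Actb and Actg1 of the 5 actins, where the other females had 1.04% to 1.34%, and its sibling, with 2.83%, was the highest of the males, which otherwise had 1.06% to 1.67%. The male of litter 2 had 1.08% for Tpm4 of the 4 tropomyosins, where the other males had 0.661% to 0.726%, and its sibling, with 1.32%, was the highest of the females, which otherwise had 0.556% to 0.854%.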

How the results depend on the processing

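Each litter has 2 libraries, the litter fit has 3 residual degrees of freedom, and batch was not tested since the labels give no preparation dates. With litter as replicate block, the sex test called 29 genes in place of 6 and changed no call of the 10 genes.

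Litter 3 carried much of the litter result: without litter 3, the litter test called 1898 of 13899 genes and 4 of the 10. Without a filter, 24853 genes were tested in place of 13771. Litter 1 then called 7 of the 10 genes (4 in the main analysis) and 9.58% of all tested (13.3%), and litter 2 called 5 (2) and 1249 in all, or 5.03% (575, or 4.18%). Litter 3 called 7 (8) and 17.3% of all tested (28.3%), and litter 4 called 9 (6) and 8.34% (10.5%). The litter test called 10 (8) and 5723 genes in all (4427). A mean of at least 50 counts gave 345 for litter 2, or 3.09% of 11158. Library size alone gave 2419 genes higher and 1698 lower in litter 3 (1871 and 2032 with TMM) and 262 and 1501 in litter 4 (648 and 799), and moved the median of all genes by less than 0.1.

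Without 1 library at a time, genes called ranged from 2964 to 4097 for litter (7 of the 10 in each fit), 359 to 1869 for litter 1 (1 to 5 of the 10), 153 to 752 for litter 2 (0 to 3), 1704 to 3791 for litter 3 (5 to 8), 322 to 1302 for litter 4 (2 to 6) and 5 to 7 for sex (0). Between 13861 and 14007 genes were tested in these fits. Log2 differences between the sexes changed sign in some of these fits, with ranges from -0.14 to 0.33 for Acta2, -0.11 to 0.19 for Actb, -0.16 to 0.12 for Actc1, -0.013 to 0.35 for Actg1, -0.059 to 0.18 for Tpm1, -0.014 to 0.20 for Tpm2 and -0.26 to 0.24 for Tpm4. That of Actc1 was also below 0 with library size alone (-0.0037), no filter (-0.0073), a mean of 50 counts (-0.0023) and without litter 3 (-0.048). DESeq2 lost the litter test of Actg1 (adjusted p = 0.277) and Tpm3 (0.134), the litter 1 and litter 4 calls of Actb (0.153 and 0.0887), the litter 3 call of Tpm2 (0.12) and the litter 4 call of Tpm3 (0.0523). Without the sex term the litter test of Actg1 (0.051) and Tpm3 (0.144) was lost, and without litter 2 that of Tpm3 (0.0507). The litter 3 call of Tpm2 was lost with library size alone (0.0939) and without a filter (0.0832). The litter test of Tmod1 passed without a filter (0.0405), with DESeq2 (0.0473), without mitochondrial genes (0.0473) and without litter 2 (0.0418), and that of Acta1 passed without a filter (3.6e-07) and without litter 4 (0.0338). The cause of these changes was not tested.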
